A study of Mus musculus with 24 samples.

Results

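The red blood cell genes described here are 8 transcripts that make or carry hemoglobin or build the red cell membrane: Alas2, Hba-a1, Hbb-bt, Hbb-bs, Slc4a1, Ahsp, Epb42 and Rhag. They were chosen by their values in lung, where red cell markers were seen to be higher at 90 weeks than at 10 weeks. The lung values are therefore given as a description with no test, and tests are given for liver, kidney and white adipose tissue (WAT) alone. Probes were matched for 6 of the 8 genes, out of 22911 gene symbols on the array. No probe was matched for Hbb-bs or Ahsp. After the filter on dim probes, 4 of the genes could be compared in liver (Alas2, Hba-a1, Hbb-bt and Slc4a1), 5 in kidney (the same 4 and Epb42), 4 in WAT and 4 in lung.

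The samples were total RNA from liver, lung, kidney and WAT of male C57BL/6J mice aged 10 weeks (10W, young) or 90 weeks (90W, aged), with 3 samples per tissue and age and no treatment or transgene named in the labels. Each of the 24 samples was hybridised to its own 1-colour Agilent array. The comparison of interest was whether these genes differ between ages in each tissue, and whether the amount of blood left in an organ moves with that difference. Whether the organs were flushed of blood, and whether 1 mouse gave several tissues, are not given in the sources used here. The labels number the samples of a group, and p-values measure the spread between these samples.

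Mature mouse red cells have no nucleus but keep residual RNA for a short time after they leave the bone marrow as reticulocytes, so whole blood RNA is rich in globin transcripts. Hemoglobin is built from alpha and beta globin chains and from heme, whose synthesis in red cell precursors starts with the enzyme encoded by Alas2. The red cell membrane is held to its skeleton through band 3, protein 4.2 and the Rh complex. Adult mice can also make red cells outside the marrow, above all in the spleen.

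The promoters of 6 of the 8 genes were in the RefSeq table used (build GRCm38.p6, which is not the mm9 build of the array design). The 150 bases before the start of transcription of 4 of them are shown because these are the heme and globin genes on which the results turn, together with Hbb-bs, the adult beta globin gene next to Hbb-bt for which no probe was matched. Capitals mark 4 kinds of short motif on either strand: GATA motifs (the letters GATA with A or T just before and A or G just after), the CACCC box, the CCAAT box and the TATAA box. Motifs may overlap. The sequences run 5′ to 3′ on the strand of the gene.
Alas2, chrX:150547267-150547416, plus strand: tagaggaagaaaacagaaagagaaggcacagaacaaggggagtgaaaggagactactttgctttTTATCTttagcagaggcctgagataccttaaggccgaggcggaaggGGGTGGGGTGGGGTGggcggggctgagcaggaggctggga
Hba-a1, chr11:32283522-32283671, plus strand: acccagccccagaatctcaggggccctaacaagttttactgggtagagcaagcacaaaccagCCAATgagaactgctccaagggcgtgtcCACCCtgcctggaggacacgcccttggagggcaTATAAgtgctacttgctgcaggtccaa
Hbb-bt, chr7:103813924-103814073, minus strand: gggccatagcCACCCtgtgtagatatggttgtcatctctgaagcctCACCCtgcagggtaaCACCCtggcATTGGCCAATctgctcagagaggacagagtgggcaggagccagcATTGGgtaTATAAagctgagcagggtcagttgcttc
Hbb-bs, chr7:103827929-103828078, minus strand: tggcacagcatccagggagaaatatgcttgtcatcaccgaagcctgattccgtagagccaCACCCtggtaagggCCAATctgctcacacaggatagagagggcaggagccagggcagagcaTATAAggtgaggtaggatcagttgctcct

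The 3 globin promoters each held TATAA, 27, 28 and 29 bases before the start in Hba-a1, Hbb-bt and Hbb-bs. Each also held CACCC and CCAAT on the plus strand. The Alas2 promoter had neither TATAA nor CCAAT in this window. It held a GATA motif on the minus strand 86 bases before the start and 3 copies of CACCC on the minus strand 30 to 40 bases before it. Rhag, whose protein is part of the Rh complex of the red cell membrane, held a GATA motif, CACCC and CCAAT on the minus strand. Epb42 held only TATAA, on the minus strand. Over 32851 promoters cut to the same length, 16% held a GATA motif, 37.4% CACCC, 24.5% CCAAT and 14.2% TATAA, so a match to one of them is common and is a description only.

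Levels below are the log2 of the processed signal minus the 75th percentile of the same array. A level of 0 is thus the 75th percentile of that array, and levels below it are negative. A probe was "well above background" where the scanner software called it so. Levels of different genes come from different probes and are not compared.

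In lung, all 4 genes that could be compared were higher on every aged array than on any young array, with a median difference of 2.65 on the log2 scale. Over all 30327 probes compared in lung, 11.6% showed this same separation, and the median difference was -0.08. Since the genes were selected on this contrast, nothing is read from that count.

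Hba-a1 encodes an alpha globin chain. In lung its brightest probe stood at 5.27, 7.57 and 7.71 in the young and at 8.79, 9.44 and 8.91 in the aged samples. The groups did not overlap, and the mean rose from 6.85 ± 1.37 to 9.05 ± 0.35 (SD, n = 3 each), a difference of 2.20 or 4.59-fold. A second, dimmer Hba-a1 probe stood at 3.69, 5.92 and 6.07 in the young and at 7.76, 8.47 and 8.01 in the aged lungs, a difference of 2.85 or 7.23-fold. The brightest probe was the 6th brightest of all probes on each aged lung array, at a signal of 381000 to 459000 where the brightest probe of an array reached 531000 to 585000. No spot was called saturated. The difference was thus smaller by the probe that lay near the top of the signal range.

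Hbb-bt encodes an adult beta globin chain. Its lung levels were 2.96, 5.19 and 5.22 in the young and 7.07, 8.06 and 7.57 in the aged samples. Young sample 1 was the lowest for both globin genes, and the lowest aged sample still lay above the highest young one. The means were 4.46 ± 1.30 and 7.57 ± 0.49 (SD, n = 3 each), a difference of 3.11 or 8.63-fold. Mouse alpha globin genes, and likewise adult beta globin genes, are close copies of each other, so a probe for one may bind transcripts of another and the gene names of globin probes are uncertain.

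Alas2 encodes the red cell form of 5-aminolevulinate synthase, the rate-limiting enzyme of heme synthesis in red cell precursors. In lung it stood at -2.34, 0.02 and 0.25 in the young and at 2.63, 3.45 and 2.89 in the aged samples. The mean went from -0.69 ± 1.43 to 2.99 ± 0.42 (SD, n = 3 each), a difference of 3.68 or 12.8-fold, the largest of the 4. The groups lay apart, and the young sample with the lowest globin levels also had the lowest Alas2 level.

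Slc4a1 encodes band 3, the anion exchanger of the red cell membrane, and is also expressed by acid-secreting intercalated cells of the kidney. Its lung levels were -3.52, -3.02 and -2.84 in the young and -1.87, -0.19 and -1.07 in the aged samples. The groups did not overlap, with means of -3.12 ± 0.35 and -1.04 ± 0.84 (SD, n = 3 each) and a difference of 2.08 or 4.24-fold. Aged sample 2 was the highest lung sample for all 4 genes. Without it the median difference of the 4 genes in lung was 2.43.

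Epb42, which encodes protein 4.2, an anchor of band 3 to the skeleton, was not well above background on any lung array. Its measured values were -8.03, -8.15 and -8.00 in the young and -6.94, -5.50 and -7.79 in the aged lungs. Rhag was not well above background on any lung array either. For these membrane genes the lung arrays give no usable level at either age.

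**Figure D1:**
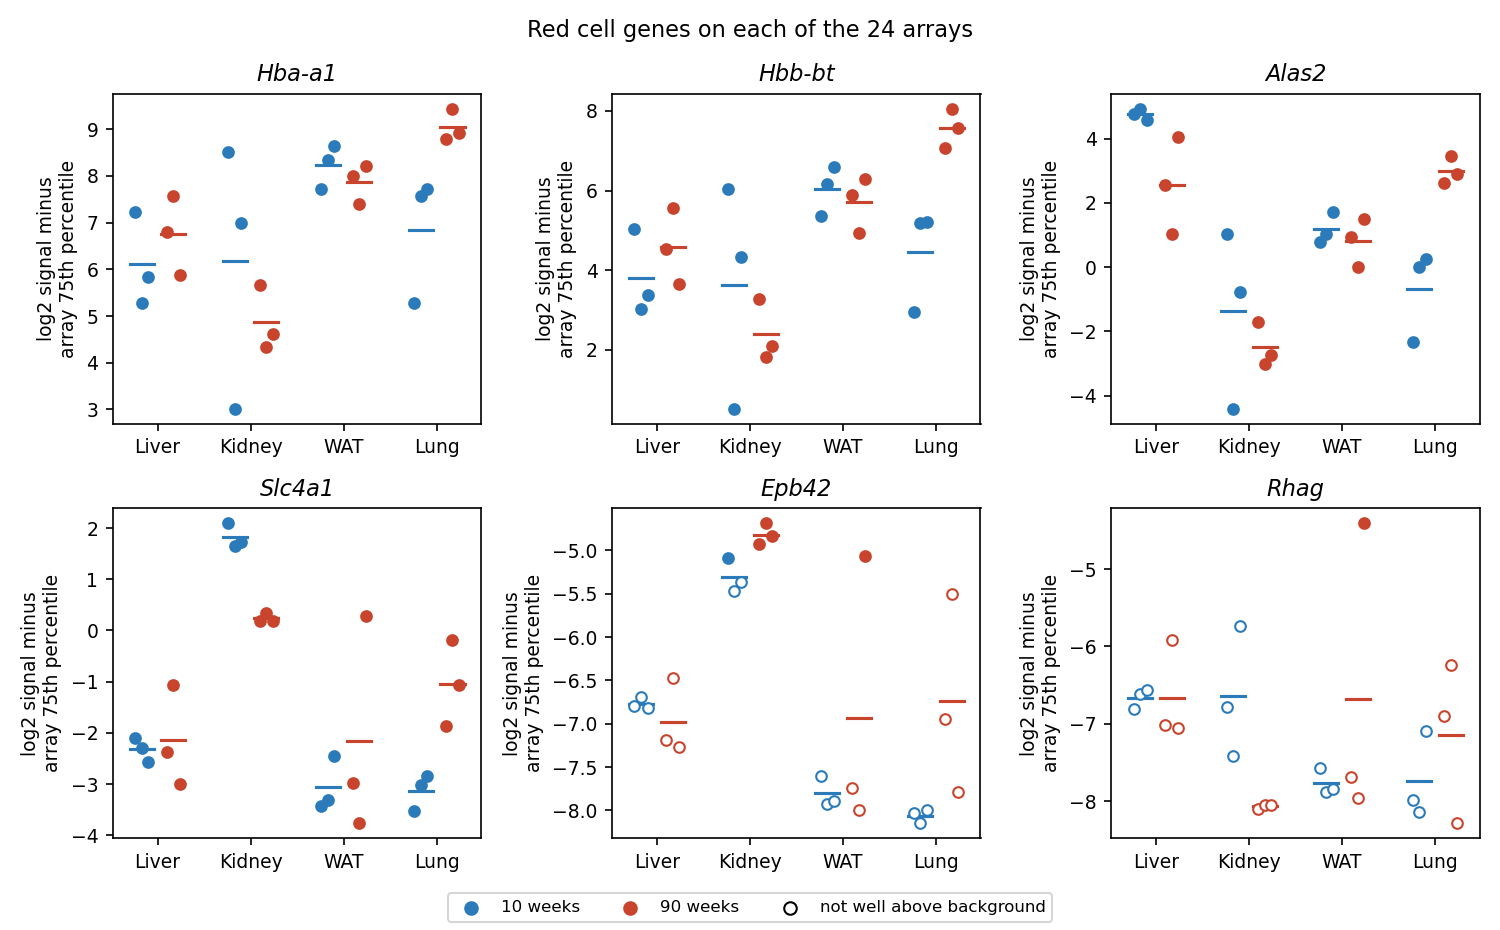
Level of each of the 6 red cell genes with a probe on each of the 24 arrays (y axis, log2 signal minus the 75th percentile of the array, a separate scale for each gene; x axis, tissue; blue, 10 weeks; red, 90 weeks; points, samples; bars, means of 3; open points, not well above background). In lung the aged points of Hba-a1, Hbb-bt, Alas2 and Slc4a1 all lie above the young ones, while in kidney the young points of the first 3 spread widely and Slc4a1 lies lower in the aged samples.

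In liver none of the 4 genes passed the test in either direction, where 10.5% of 27906 probes were called higher and 17% lower at 90 weeks (limma, Benjamini-Hochberg adjusted p below 0.05). Their median difference was 0.40, against -0.20 over all probes. The globin genes and Slc4a1 overlapped between ages, and Alas2 lay lower in every aged sample.

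Alas2 in liver was 4.78, 4.94 and 4.58 in the young and 2.57, 1.04 and 4.06 in the aged samples. The SD was 0.18 in the young and 1.51 in the aged samples, and the groups did not overlap. Such a separation downward was shown by 33.1% of all probes in liver. The difference was -2.21 (SE 0.68), a 4.62-fold lower level, with an adjusted p of 0.05001 by limma, just outside the threshold. Alas2 passed the test in liver under 5 of 17 alternative settings, and its adjusted p over them ran from 5.35e-06 to 0.155.

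Hba-a1 in liver stood at 7.22, 5.28 and 5.84 in the young and at 6.80, 7.57 and 5.87 in the aged samples, a difference of 0.64 (SE 0.59, limma adjusted p = 0.432). Hbb-bt stood at 5.03, 3.02 and 3.39 in the young and at 4.54, 5.56 and 3.65 in the aged livers, a difference of 0.77 (SE 0.64, limma adjusted p = 0.383). Both globin genes were highest in aged sample 2, in which Alas2 was lowest. Slc4a1 was -2.10, -2.29 and -2.56 in the young and -2.37, -1.07 and -2.99 in the aged livers, a difference of 0.17 (SE 0.46, limma adjusted p = 0.795). Epb42 and Rhag were not well above background on any liver array.

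In kidney 1 of the 5 genes compared was called higher at 90 weeks, Epb42, and 1 was called lower, Slc4a1. Over 31505 probes, 20.6% were called higher and 42.6% lower in kidney, so neither count stands above what all probes showed. The median difference of the 5 genes was -1.22, against -0.23 over all probes.

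Slc4a1 in kidney was 2.09, 1.64 and 1.72 in the young and 0.19, 0.34 and 0.19 in the aged samples. The groups lay far apart compared with their spread, with means of 1.82 ± 0.24 and 0.24 ± 0.09 (SD, n = 3 each). Slc4a1 fell by 1.58 on the log2 scale (SE 0.14, limma adjusted p = 0.000314), which was 2.99-fold lower. In these bulk samples, fewer cells of a type and less RNA per cell cannot be told apart.

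Markers of intercalated cells were mostly lower in the aged kidneys, as Slc4a1 was. Of 10 such genes, 8 were called lower (all probes, 42.6%) and none higher, with a median difference of -0.97. The mean level of the list was 2.48 to 2.53 in the young and 1.45 to 1.60 in the aged samples. The fall was not particular to this list. Of 6 general kidney markers, 4 were called lower and 1 higher, with a median of -1.09. Insrr, a receptor tyrosine kinase that senses alkali, fell by 1.64 (SE 0.09, limma adjusted p = 7.38e-05). Rhbg, an ammonium transporter, fell by 1.52 (SE 0.11, limma adjusted p = 0.000175). Atp6v1c2, a proton pump subunit, fell by 1.47 (SE 0.08, limma adjusted p = 6.81e-05). Their part in the Slc4a1 result was not tested.

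The heme and globin genes in kidney varied more between young samples than between ages. Hba-a1 was 8.50, 3.02 and 6.98 in the young and 5.67, 4.34 and 4.62 in the aged samples, a difference of -1.29 (SE 1.36, limma adjusted p = 0.435). Hbb-bt was 6.03, 0.53 and 4.33 in the young and 3.29, 1.83 and 2.10 in the aged samples, a difference of -1.22 (SE 1.36, limma adjusted p = 0.460). Alas2 was 1.04, -4.40 and -0.77 in the young and -1.69, -3.01 and -2.74 in the aged samples, a difference of -1.1 (SE 1.33, limma adjusted p = 0.496). In all 3 genes the young samples kept the same order, with sample 1 highest and sample 2 lowest, and the aged values lay between them. Without young sample 2 all 3 were called lower, with differences of -2.86, -2.77 and -2.61 in the order given (limma adjusted p = 0.0115, 0.0173 and 0.0205), and without young sample 1 the Alas2 difference turned to 0.10. Slc4a1 had the same order in the young kidneys, but only over 1.64 to 2.09.

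Epb42 in kidney was -5.09, -5.47 and -5.36 in the young and -4.93, -4.69 and -4.84 in the aged samples. It rose by 0.49 (SE 0.13, limma adjusted p = 0.0157), but it was a dim probe, well above background in 1 of 3 young and 3 of 3 aged samples. With another background correction the difference was -0.11. Rhag was not well above background on any kidney array.

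In WAT none of the 4 genes was called in either direction, where 2.01% of 30063 probes were called higher and 0.579% lower. Their median difference was -0.35, against -0.05 over all probes. Hba-a1 was 7.72, 8.33 and 8.63 in the young and 7.99, 7.40 and 8.20 in the aged samples, a difference of -0.36 (SE 0.32, limma adjusted p = 0.580). Hbb-bt was 5.35, 6.17 and 6.58 in the young and 5.89, 4.93 and 6.29 in the aged samples, a difference of -0.33 (SE 0.46, limma adjusted p = 0.729). The groups overlapped for both globin genes. Alas2 was 0.79, 1.03 and 1.73 in the young and 0.94, 0.00 and 1.49 in the aged samples, a difference of -0.38 (SE 0.44, limma adjusted p = 0.680).

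The membrane genes in WAT were set apart by 1 aged sample. Slc4a1 was -3.42, -3.31 and -2.46 in the young and -2.98, -3.77 and 0.28 in the aged samples, a difference of 0.90 (SE 1.04, limma adjusted p = 0.673) that became -0.32 without aged sample 3. Epb42 was -7.60, -7.92 and -7.89 in the young and -7.74, -7.99 and -5.07 in the aged samples, and only aged sample 3 was well above background. Rhag reached -4.41 in the same sample, its only value well above background among the 24 arrays. The globin and Alas2 levels of that sample lay within the range of the young WAT samples, and the genes of neutrophil precursors were at their highest for WAT in it.

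**Figure D2:**
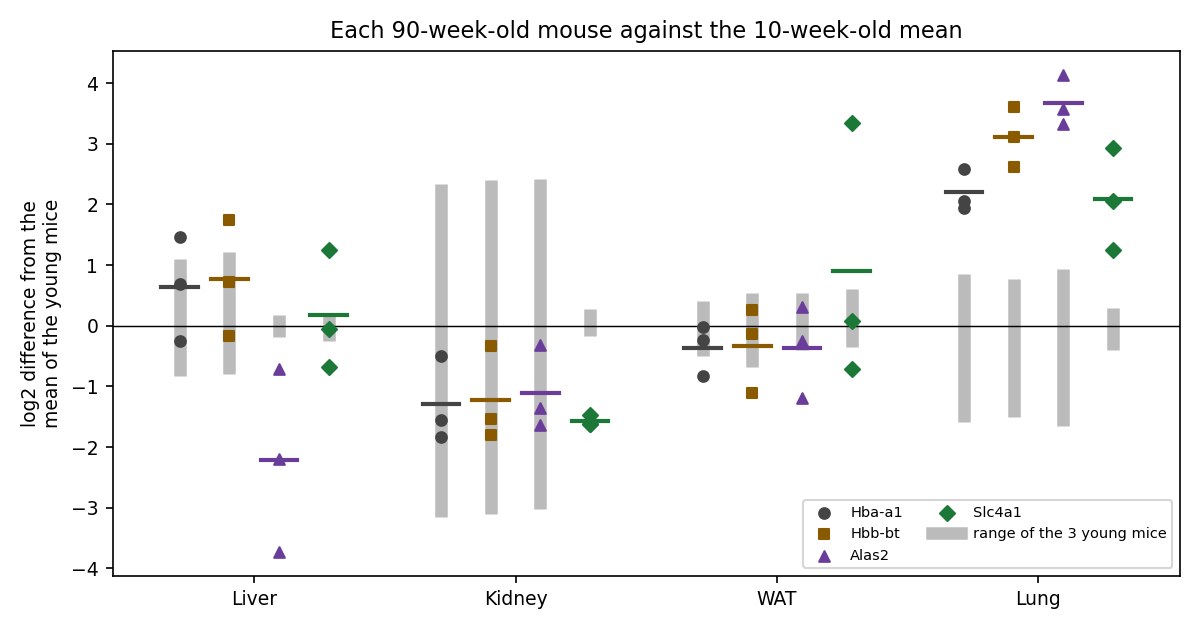
Each aged sample's level minus the mean of the 3 young samples of its tissue (y axis, log2 difference; x axis, tissue; points, the 3 aged samples; coloured bars, their mean; grey bars, the range of the 3 young samples around their own mean). The lung points of all 4 genes lie above the young range, the kidney points of Hba-a1, Hbb-bt and Alas2 lie inside it, and the liver points of Alas2 and the kidney points of Slc4a1 lie below it.

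Whether the age difference itself differed between tissues was tested for the 4 genes over the 3 pairs of liver, kidney and WAT, 12 tests in all, with lung left out. None was called. Over the 26256 probes tested, 7.23% were called between liver and kidney, 14% between liver and WAT and 19% between kidney and WAT. The lowest adjusted p was for Slc4a1 between kidney and WAT, where the age difference was 2.48 lower in kidney (-2.48, SE 1.05, limma adjusted p = 0.109). For Alas2 the age difference in liver minus that in WAT was -1.83 (SE 1.44, limma adjusted p = 0.411), and in liver minus that in kidney -1.11 (SE 1.44, limma adjusted p = 0.736). For Hba-a1 and Hbb-bt the differences ran from -0.93 to 1.99 with SEs of 1.39 and 1.45.

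The order of levels over the 8 groups differed between genes, as a description, since each tissue lay on 1 slide of its own and tissue and slide cannot be told apart. Alas2 was highest in young liver (4.76 ± 0.18), followed by aged lung (2.99 ± 0.42) and aged liver (2.56 ± 1.51), and the latter pair overlapped. Hba-a1 and Hbb-bt were highest in aged lung and next in young and aged WAT, and both were lowest in aged kidney. The aged lung samples lay above all other samples of Hba-a1 and of Hbb-bt, and WAT of both ages overlapped. Slc4a1 was highest in young and then aged kidney and lowest in young lung.

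The ratio between 2 genes on the same array does not depend on how the array is scaled. Ratios are given with the mean of the young samples of the tissue set to 0. For the ratio of Hbb-bt to the dimmer Hba-a1 probe, the aged mean was 0.26 in lung, 0.22 in liver, 0.13 in kidney and 0.35 in WAT. Outside lung, exact two-sided permutation tests gave p = 0.3, 0.1 and 0.1 for liver, kidney and WAT, where 0.1 is the smallest p that 3 against 3 samples allow. With the brightest Hba-a1 probe the lung value was 0.91.

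In kidney the SD of the ratio of Alas2 to Hbb-bt was 0.08 in the young and 0.07 in the aged samples, although each gene alone varied widely there, and the aged mean was 0.12 (exact permutation p = 0.2). In WAT the SD was 0.29 in the young and 0.08 in the aged samples, and the aged mean was -0.04 (exact permutation p = 0.8). In lung the young ratios were -0.15, -0.02 and 0.17 and the aged ones 0.71, 0.55 and 0.47, so that Alas2 was 0.57 higher against Hbb-bt in the aged lungs and the groups did not overlap. Against the dimmer Hba-a1 probe, Alas2 was 0.83 higher in the aged lungs. Both globin probes were bright there, with signals of 116000 to 182000 for Hbb-bt and 187000 to 247000 for the dimmer Hba-a1 probe. Alas2 had signals of 5320 to 7110 on these arrays. The beta globin probes Hbb-b1 and Hbb-b2, dimmer than Hbb-bt, rose by 3.43 and 3.35 in lung, against 3.68 for Alas2. The part of probe brightness in the lung ratios was not tested. In liver the aged ratios of Alas2 to Hbb-bt were -2.93, -5.47 and -0.54, with a mean of -2.98 (exact permutation p = 0.2), and Alas2 did not follow the globin genes there.

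The ratio of Slc4a1 to Hbb-bt varied more. In lung it was 1.11, -0.63 and -0.48 in the young and -1.35, -0.66 and -1.06 in the aged samples, and the aged mean was -1.03. In kidney the young ratios were -2.12, 2.92 and -0.80 and the aged mean was -0.36 (exact permutation p = 0.9). In WAT the aged ratios were 0.23, 0.40 and 3.09, the last in aged sample 3 (exact permutation p = 0.2).

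**Figure D3:**
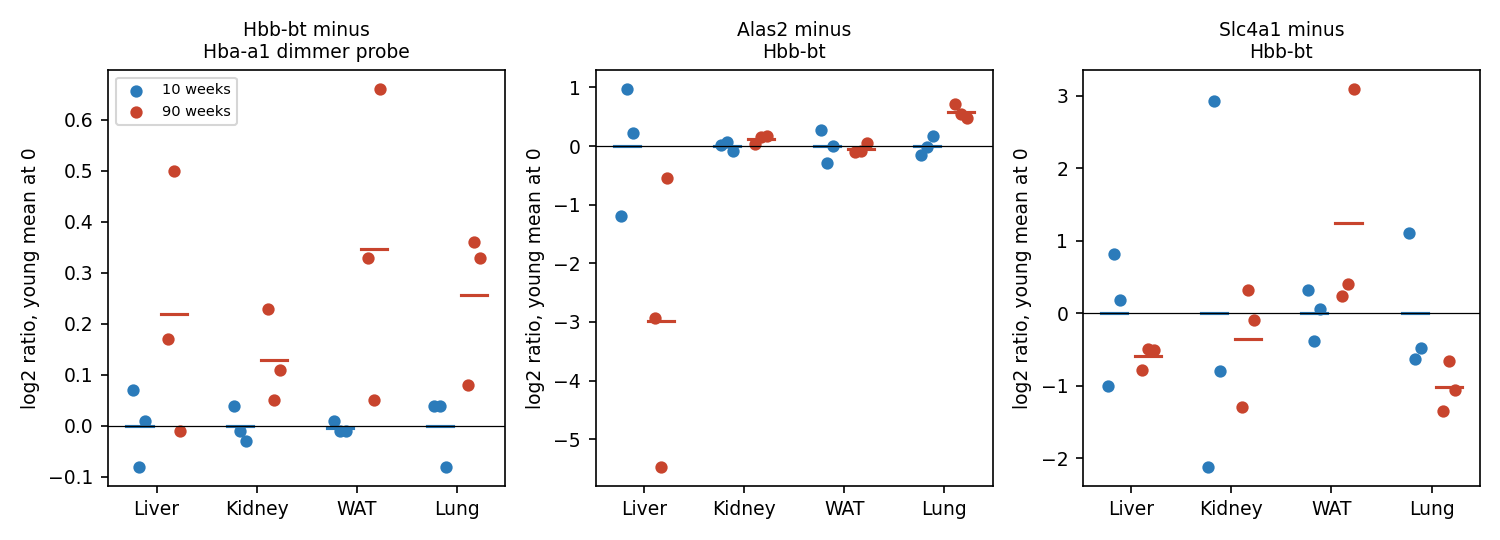
Ratios between 2 red cell genes on the same array (y axis, log2 ratio with the mean of the young samples of the tissue at 0, a separate scale for each panel; x axis, tissue; blue, 10 weeks; red, 90 weeks; points, samples; bars, means of 3). The ratio of Alas2 to Hbb-bt lies between -0.29 and 0.28 in kidney and WAT, lies at 0.47 to 0.71 in the aged lungs and reaches -5.47 in the aged livers.

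Differences between samples of the same tissue and age were not used to choose the genes. The deviation of each of the 24 arrays from the mean of its own group was therefore compared between genes, with no p because arrays of a tissue share a slide and may share mice. Hba-a1 and Hbb-bt deviated together with a Pearson r of 0.992 and a Spearman rho of 0.986 over the 24 arrays. Alas2 followed Hba-a1 with r = 0.737 (rho = 0.565), and Slc4a1 followed it with r = 0.34 (rho = 0.609). Against the mean of the other 3 genes, r was 0.926 for Hbb-bt, 0.900 for Hba-a1, 0.668 for Alas2 and 0.330 for Slc4a1. Without young kidney samples 1 and 2, which deviated most, these became 0.837, 0.785, 0.337 and 0.453. The r of Alas2 over the 24 arrays thus depended on those arrays. In liver the SD of the ratio of Alas2 to Hbb-bt was 1.11 in the young and 2.47 in the aged samples. It was at most 0.29 in either age group of lung, kidney and WAT.

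Deviations of 25772 genes were set against the mean of the 4 red cell genes, and those with a symbol were ranked. The most alike were probes named for other globin genes: Hbb-b2 (r = 0.956), Hbb-b1 (r = 0.955) and Hba-a2 (r = 0.951). They may bind transcripts of Hba-a1 and Hbb-bt, which are part of that mean. Their r, and the globin cluster median below, are therefore not separate evidence. Next came Zdhhc22 (r = 0.934), Unc93a2 (r = 0.876), 4732490B19Rik (r = 0.822), Zcchc8 (r = 0.814), Olfr1383 (r = 0.776), Clec1b (r = 0.771) and Olfr15 (r = 0.740). Without young kidney samples 1 and 2, r fell to 0.498 for Olfr1383, 0.581 for Clec1b, 0.618 for 4732490B19Rik and 0.729 for Zcchc8. The others of the 10 then stood at 0.856 to 0.909. Clec1b encodes a receptor on platelets and megakaryocytes. The median r of all genes was 0.03. By list, the median r was 0.74 for 6 globin cluster genes, 0.40 for 10 platelet genes, 0.39 for 8 circulating neutrophil genes, 0.35 for 8 T cell genes and -0.06 for 8 genes of heme synthesis.

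**Figure D4:**
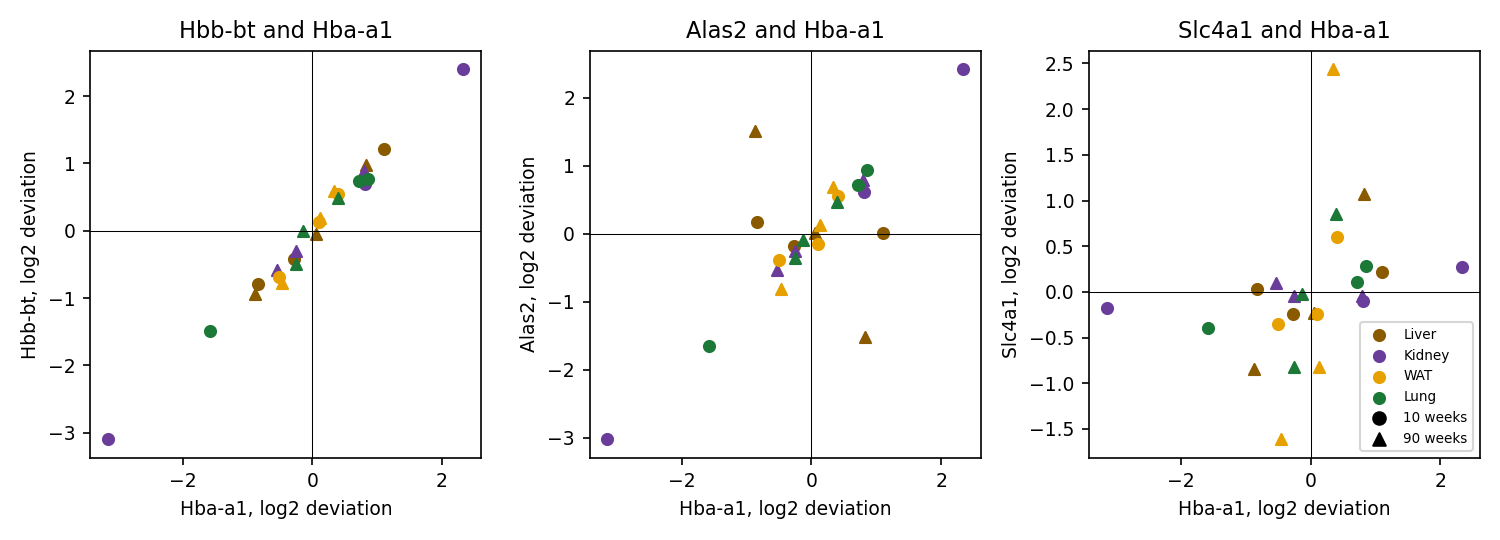
Deviation of each of the 24 arrays from the mean of its own tissue and age group, for Hbb-bt, Alas2 and Slc4a1 (y axes, log2) against Hba-a1 (x axes, log2; colour, tissue; circles, 10 weeks; triangles, 90 weeks). Hbb-bt lies along a line with Hba-a1 (r = 0.992). Alas2 follows Hba-a1 except in liver (Pearson r = 0.737, Spearman rho = 0.565 over all arrays). For Slc4a1 the Pearson r is lower (0.34) but the Spearman rho is not (0.609).

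Among the other probes of the globin clusters, those matched to the adult gene names Hba-a2, Hbb-b1 and Hbb-b2 were higher in every aged than in every young lung. The differences were 2.18, 3.43 and 3.35, and none of the 3 was called in liver, kidney or WAT. These probes may bind the same transcripts as those of Hba-a1 and Hbb-bt, so they are not separate evidence, and the presence of transcripts of the named genes is not shown. Hbb-bh1 and Hbb-bh2, embryonic-type beta-like genes, were lower in every aged than in every young lung (differences of -0.74 and -0.54), a separation shown by 24.2% of all lung probes. Both were well above background in 3 of 3 young but only 2 of 3 aged lungs. Hbb-bh2 fell by 0.82 in liver (SE 0.18, limma adjusted p = 0.0185) and by 1.11 in kidney (SE 0.26, limma adjusted p = 0.0113). In kidney it was well above background in 3 of 3 young and 1 of 3 aged samples, so the size of that fall is uncertain. The related alpha-like gene Hbq1b fell by 0.84 in liver (SE 0.24, limma adjusted p = 0.0416). Of 9 listed genes of the clusters, 6 passed the filter in each tissue.

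The counts of further genes that follow stand against the shares of all probes given above, in kidney 20.6% higher and 42.6% lower, in liver 10.5% and 17%, in WAT 2.01% and 0.579%, and without overlap in lung 11.6% and 24.2%. The 8 other enzymes listed for heme synthesis, among them Alas1, did not move with the red cell genes in lung, where their median difference was -0.09. Of the 8, Fech (0.22) lay higher and Alad (-0.39) lower in every aged lung. In kidney 7 of the 8 were called lower, where 42.6% of all probes were, with a median of -0.81. Uros fell by 1.18 (SE 0.09, limma adjusted p = 0.000226), Fech, which inserts the iron, by 1.05 (SE 0.11, limma adjusted p = 0.000495) and Cpox by 0.98 (SE 0.15, limma adjusted p = 0.00202). In liver 3 were called lower, among them Uros (-0.82, SE 0.20, limma adjusted p = 0.0264) and Ppox (-0.62, SE 0.16, limma adjusted p = 0.0337), and the median was -0.62. None was called in WAT, with a median of -0.37. Liver and kidney cells use this pathway for other heme proteins too.

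Of 10 genes for iron uptake and heme transport, 8 were called lower and 1 higher in kidney (all probes, 42.6% and 20.6%), with a median of -1.07. Tfrc, the transferrin receptor, fell by 1.77 (SE 0.29, limma adjusted p = 0.0025), while Flvcr1, a transporter first described as a heme exporter, rose by 0.96 (SE 0.14, limma adjusted p = 0.00191). In liver 5 of the 10 were called lower, with a median of -0.66, among them Abcg2 (-1.37, SE 0.41, limma adjusted p = 0.0474) and Steap3, a ferrireductase (-1.08, SE 0.22, limma adjusted p = 0.016). The other genes called lower in liver were Abcb6 (-0.89), Slc25a38 (-0.69) and Slc25a39 (-0.63). None was called in WAT, where the median was 0.40. In lung the median was -0.05, and Slc25a37, the mitochondrial iron importer mitoferrin 1, was 0.99 higher and did not overlap, while Abcb10 lay lower (-0.15).

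Of the 16 other genes listed for the red cell membrane and skeleton, 13 were compared in lung, 1 lay higher in every aged sample (Epb41, by 0.87) and 5 lay lower, with a median of -0.16. The 5 were Tmod1 (-0.75), Add2 (-0.58), Icam4 (-0.46), Gypc (-0.44) and Xk (-0.34). In kidney 2 of 13 were called higher, the cytoskeletal gene Add2 by 1.93 (SE 0.24, limma adjusted p = 0.000908) and Gypc by 1.12 (SE 0.27, limma adjusted p = 0.0123). A further 7 were called lower there, against 42.6% of all probes, among them the water channel Aqp1 (-1.21, SE 0.19, limma adjusted p = 0.00234). In liver 1 of 10 was called, Xk (-0.83, SE 0.23, limma adjusted p = 0.0398), and in WAT none of 13.

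Red cell transcription factors and Epo signalling genes moved in both directions. In lung 3 of 14 lay higher in every aged sample (all probes, 11.6%), Nfe2 by 1.95, Gata1 by 1.47 and Gfi1b by 0.96, and 2 lay lower (all probes, 24.2%), Myb (-0.57) and Sox6 (-0.47). Nfe2, Gata1 and Gfi1b are also used by megakaryocytes, the cells that make platelets. Klf1, a factor required for adult beta globin expression, stood at means of -4.13 and -4.05 in young and aged lung, a difference of 0.08 with overlap, and fell by 1.1 in kidney (SE 0.12, limma adjusted p = 0.000691). In kidney, where 20.6% of all probes were called higher and 42.6% lower, 4 of 13 were called higher, Nfe2 (1.89), Lmo2 (1.19), Bcl11a (0.86) and Zfpm1 (0.49), and 3 lower, Klf1, Sox6 (-0.82) and Stat5a (-0.53). In liver 2 of 13 were called higher, Lmo2 by 1.32 (SE 0.26, limma adjusted p = 0.014) and Epor by 0.96 (SE 0.21, limma adjusted p = 0.0208), and 1 lower, Stat5a (-0.94, SE 0.24, limma adjusted p = 0.0305). In WAT Bcl11a alone of 14 was called, higher by 1.49 (SE 0.22, limma adjusted p = 0.0304).

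Of 24 genes of late erythroblasts and reticulocytes, 22 were compared in lung, 5 lay higher in every aged sample and 2 lower, and the median was -0.02. Among them Tent5c was 0.68 higher in the aged lungs, Bpgm, the enzyme of 2,3-bisphosphoglycerate synthesis, 0.65, Ube2o 0.60 and Tspo2 0.32. The lower pair was Cat (-0.73) and Trim58 (-0.57). In kidney 2 of 20 were called higher, Isg20 (1.83) and Tent5c (1.07), and 15 lower, with a median of -0.54 (all probes, 20.6% higher and 42.6% lower). In liver 6 of 20 were called lower, among them Cat (-1.34, SE 0.36, limma adjusted p = 0.036), and in WAT none of 21.

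Of the genes that clear aged red cells and recycle their iron, 6 of 12 rose and 3 fell in kidney, where 20.6% of all probes were called higher and 42.6% lower, and the median was 1.44. Cd5l, a protein secreted by macrophages, rose there by 6.07 (SE 0.44, limma adjusted p = 0.000184), Hp, the hemoglobin-binding plasma protein haptoglobin, by 5.35 (SE 0.40, limma adjusted p = 0.000193) and Vcam1 by 4.55 (SE 0.13, limma adjusted p = 1.61e-05). Blvra, Fth1 and Ftl1 fell in kidney by 0.71, 0.70 and 0.53 (limma adjusted p = 0.00103, 0.00202 and 0.00199). In liver 4 of 13 rose (all probes, 10.5%) and none fell, Vcam1 by 3.36 (SE 0.43, limma adjusted p = 0.0044), Hmox1, the heme-degrading oxygenase, by 2.0 (SE 0.32, limma adjusted p = 0.0084), Spic, a factor of red pulp macrophages, by 1.88 (SE 0.26, limma adjusted p = 0.00517) and Cd5l by 1.61 (SE 0.35, limma adjusted p = 0.0198). In WAT 3 of 13 rose (all probes, 2.01%), Vcam1 by 3.28, Hmox1 by 2.96 and Spic by 2.56 (limma adjusted p = 0.0253, 0.0399 and 0.021). In lung Cd5l (5.20 higher) and Lrp1 (0.36 higher) did not overlap.

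Among 12 genes of systemic iron control, Hamp2, a hepcidin gene, fell by 4.32 in liver (SE 0.85, limma adjusted p = 0.0147) and by 0.91 in WAT (SE 0.15, limma adjusted p = 0.0444). Hjv, a coreceptor that controls hepcidin, was the only other gene called in liver (-0.93, SE 0.27, limma adjusted p = 0.0416). In kidney Tfr2 rose by 2.22 (SE 0.26, limma adjusted p = 0.000766) and Trf, transferrin, by 2.15 (SE 0.20, limma adjusted p = 0.000417), with Hfe and Slc40a1 also called higher and Erfe, erythroferrone, lower (-1.01, SE 0.28, limma adjusted p = 0.0206). Slc40a1, the iron exporter ferroportin, rose by 2.05 in WAT (SE 0.27, limma adjusted p = 0.0215). In lung Slc40a1, Smad6 and Smad7 lay higher in every aged sample, by 1.40, 0.75 and 0.27.

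Markers of platelets, T cells and circulating neutrophils were higher in the aged lungs, as the red cell genes were, and those of B cells and monocytes mostly overlapped between ages. Of 14 platelet and megakaryocyte genes, 13 lay higher in every aged than in every young lung (all probes, 11.6%) and 1 lay lower, with a median difference of 1.60. The mean level of that list was -1.42 to -0.96 in the young and -0.07 to 0.79 in the aged lungs. All 8 T cell genes lay higher in every aged lung, with a median of 1.24 and a mean level of 0.45 to 0.83 in the young against 1.63 to 2.18 in the aged samples. Of 8 circulating neutrophil genes 5 lay higher (mean level 0.84 to 2.22 against 2.48 to 5.70), Il1r2, Mmp8, Retnlg, S100a8 and S100a9, by 2.41 to 3.56. Of 8 B cell genes Cd22 alone lay higher (0.62), and of 8 monocyte genes Ace alone (0.62), an enzyme that endothelium also makes, close to the 11.6% of all probes. The mean B cell level was -1.17 to -0.47 in the young lungs and 0.42, -2.42 and 0.12 in the aged ones, so that aged sample 2, the highest for all 4 red cell genes, was the lowest of the lungs in this list. None of the genes on these lists was dropped by the filter in lung. Of 10 genes of endothelium, the cells that line vessels, 3 lay higher (Vwf, Eng and Tie1) and 2 lower (Kdr and Emcn), and their mean level was 3.34 to 3.55 in the young and 3.45 to 3.64 in the aged lungs. The part of these cells in the lung result was not tested.

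In the other tissues genes of these lists were called higher, and no adult globin gene was called. The lists and the globin genes were not tested against each other. In kidney 6 of 8 circulating neutrophil genes, 6 of 8 T cell genes and 6 of 8 monocyte genes were called higher (all probes, 20.6%), with medians of 2.86, 1.83 and 3.38, while the globin differences were below 0 and did not pass the test. A T cell gene, Cd4, and a monocyte gene, Ace, were called lower there (all probes, 42.6%). Of 10 platelet genes in kidney, 2 were called higher, Pf4 (3.19) and Itgb3 (1.51), and 2 lower, Itga2b (-1.32) and Gp1bb (-0.89), with a median of 0.30. In liver 3 of 12 platelet genes were called higher (all probes, 10.5%), Pf4 by 4.89 (SE 0.55, limma adjusted p = 0.00302), Itgb3 by 2.09 (SE 0.47, limma adjusted p = 0.0218) and Clec1b by 1.82 (SE 0.20, limma adjusted p = 0.003), together with 4 of 8 T cell genes (Cd3g, Lck, Cd3d and Cd8b1) and 5 of 8 monocyte genes (Ccr2, Cx3cr1, Treml4, Adgre4 and Ly6c2). In WAT 5 of 8 T cell genes (Cd3g, Cd3d, Lck, Cd8b1 and Cd3e) and 4 of 8 B cell genes (among them Ms4a1, Cd79b and Cd79a) were called higher (all probes, 2.01%), and no platelet or neutrophil gene.

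A few arrays stood apart in ways that touch these values. The 8 genes of neutrophil precursors, which in adults sit mainly in marrow, had mean levels of 0.33, 5.11 and 0.78 in the aged lungs and of -2.01 to -1.54 in the young ones. Aged lung sample 2, the highest in this list, was also the highest in all 4 red cell genes. The same list stood at -0.86, 6.19 and -0.88 in the aged livers, and its highest sample, aged liver 2, had the highest globin and Slc4a1 and the lowest Alas2 levels. In WAT it stood at -2.09, -2.17 and 5.35, the last in the sample with the high Slc4a1, Epb42 and Rhag levels. Their part in these values was not tested. Aged lung sample 1 also carried liver genes at a mean level of 2.89, against -4.93 to -1.96 in the other lungs, and young WAT sample 1 carried intercalated cell genes at -0.27, against -3.80 to -2.45 in the other WAT samples. Fat cell genes were at 1.59 to 2.23 in the young and -1.60 to 0.61 in the aged lungs. Each tissue expressed its own defining markers, and 58.6% to 71.1% of probes per array were well above background.

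**Figure D5:**
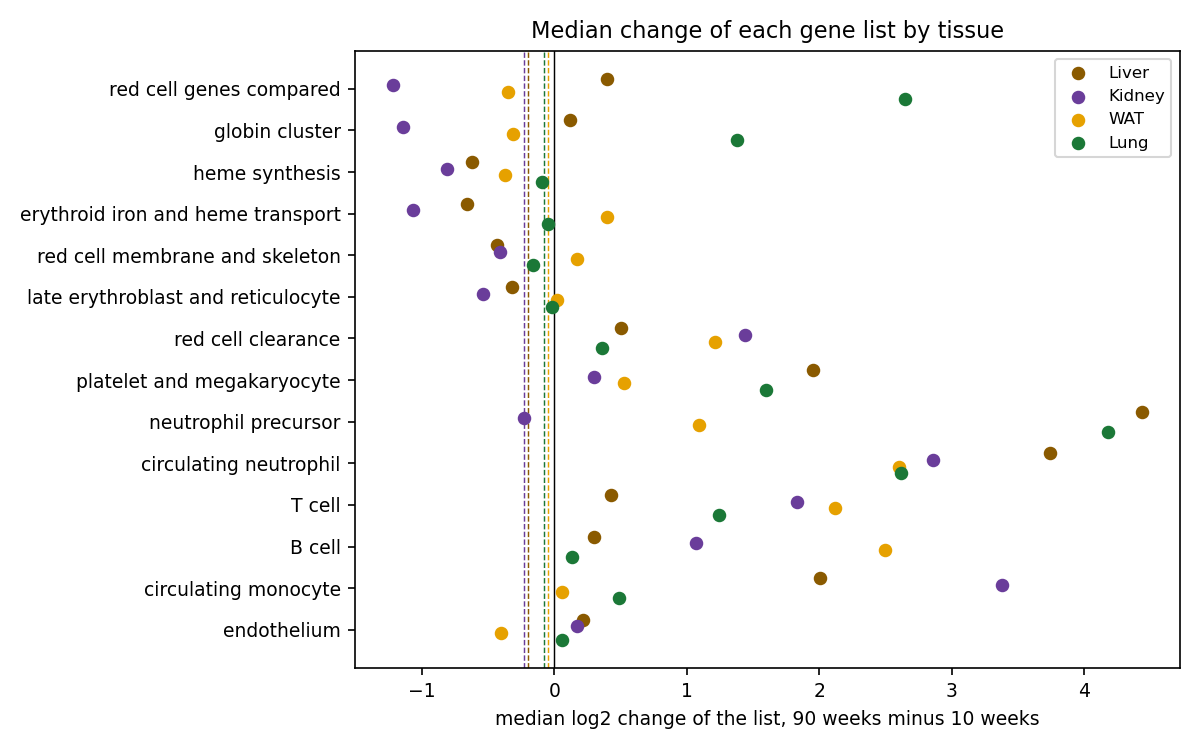
Median log2 difference between 90 and 10 weeks (x axis) of each gene list (y axis) in each tissue (colours), with the median over all probes of the tissue as a dashed line. In lung the red cell genes (2.65) and the platelet (1.60), T cell (1.24) and neutrophil lists lie above the median of all probes (-0.08), while heme synthesis and the late erythroblast list lie close to it. The differences of the first row in lung were used to choose its genes.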

How the data were processed

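Per the labels, RNA was extracted with RNeasy columns, labelled with Cy3 and hybridised to Agilent arrays. The authors deposited 1 scanner file per array, and per the file headers each holds processed intensity values, already background-corrected by Agilent Feature Extraction 11.0.1.1, for 62976 spots of a mouse design on build mm9. The methods name a human array kit.

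The 24 arrays fell into 8 groups of 3 by tissue and age. From the intensity, log2 values were taken after control spots (and 1841 flagged spots) were left out, spots of a probe were averaged, and the 75th percentile of each array (signal 259 to 956) was subtracted. The number of arrays limits the precision. A probe was compared in a tissue if it was well above background on at least 3 of its 6 arrays. Probes were named through RefSeq accessions, which gave a symbol to 58.3% of 56605 probes. Of a gene's probes the brightest was used. Age was tested per tissue with limma 3.58.1 (R 4.3.3). P-values were adjusted over all probes of the tissue (Benjamini-Hochberg), and the threshold was 0.05. On simulated data with 200 changed genes, log2 changes of 1.5 were recovered for 56% in liver, 78% in kidney and 34% in WAT, and changes of 3 for 91%, 95% and 77%. The changed genes were drawn at random, each with its own spread. These shares therefore do not apply to genes as variable as Hba-a1 and Hbb-bt in kidney (SE 1.36 for both). Ratios were compared by exact permutation tests. Arrays of a group correlated at 0.942 to 0.995.

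The genes, lists and tests were chosen with earlier results of these data known. The text names all red cell genes. From each list it names up to 3 called genes per tissue and direction with the largest change, any gene behind a count of 5 or fewer, and the 10 genes most alike between samples. Klf1 in lung was named outside this rule after its values were seen, and some listed genes are not reported here. Alternatives were other background corrections, scalings, filters, probe rules and fits, and leaving out each sample. Each tissue lay on 1 of 4 slides with both ages, so no slide term was needed. Replicate numbers are shared by the ages, except in liver, where the young were numbered 1, 2 and 3 and the aged 1, 2 and 4. The samples came from mice of different age. Samples of the same number in liver, kidney and WAT deviated together with r of only -0.09 to 0.18, so no pairing was used. This was not computed for lung.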

Additional observations from a re-analysis of the deposited data

Results flagged for a closer look

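Alas2 moved in opposite directions in lung and liver: each aged lung lay above every young lung, with a difference of 3.68, and each aged liver lay below every young liver, with a difference of -2.21. Slc4a1 did the same in lung (2.08) and kidney (-1.58). The difference between these tissues was not tested, because the lung values were used to choose the genes. Epb42 at -5.07 and Rhag at -4.41 were well above background in aged WAT sample 3, although both genes were left out of the WAT comparison as too dim on the other arrays. Groups of 3 samples are too small for a test of single outlying samples.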

How the results depend on the processing

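Over the alternatives the lung median kept its direction, from 2.12 (without young sample 1) to 3.06. In liver, 1 gene (Alas2) in place of 0 was called lower with normexp background correction (adjusted p = 0.0346 by limma), spike-in scaling (5.35e-06), centring on the median (0.0465) and the mean of a gene's probes (0.0499), and 0 to 1 were called when a sample was left out (1 without aged sample 4). The liver median was -0.14 with spike-in scaling, and -0.07 (without aged sample 2) to 0.83 (without aged sample 4) with a sample left out; Slc4a1 turned to -0.37, and with a sample left out ran from -0.36 (without aged sample 2) to 0.60. Spike-in scaling moved the median of all probes from -0.20 to -0.74 in liver, from -0.23 to -0.04 in kidney, from -0.05 to 0.19 in WAT and from -0.08 to -0.38 in lung.

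In kidney, 0 genes were called higher in place of 1 with normexp (Epb42 at -0.11), spike-in scaling and a fit of all 24 arrays, and 0 to 1 with a sample left out (0 without aged sample 2). The number called lower was 2 with no filter on dim probes, 0 in the fit of all 24 arrays and 1 to 4 with a sample left out (4 without young sample 2). The median ran from -2.61 (without young sample 2) to -0.03 (without young sample 1, where Alas2 was 0.10). Slc4a1 stayed called in 16 of 17 alternatives, from -1.69 to -1.38, with adjusted p of 5.2e-05 to 0.0803. In WAT the median was 0.27 with no filter and -0.59 to 0.04 with a sample left out; with a sample left out Alas2 ran from -0.72 to 0.03 and Hbb-bt from -0.67 to 0.05 (both highest without aged sample 2), and Slc4a1 from -0.32 (without aged sample 3) to 1.71. The cause of these changes was not tested.

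With the replicate number as a block, Alas2 in liver was -3.06 (limma adjusted p = 0.0529), Slc4a1 in kidney -1.58 (0.00288) and Epb42 0.49 (0.0469), and no call of a red cell gene changed. In liver, young sample 3 and aged sample 4 had no partner of the same number. The blocked liver differences and counts thus rest on samples 1 and 2 of each age. Over all probes the block left 1068 higher and 630 lower in liver (2928 and 4749 without it) and 323 and 41 in WAT (605 and 174). By the methods' t-test with Benjamini-Hochberg adjustment, limma's counts in WAT became 1 and 0. Differences between tissues gave no call under any alternative, including age and replicate number as a random block (correlation 0.07).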
